A study of Mus musculus with 10 samples.

Results

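Compound 10 was compared with vehicle in resting naive CD4 T cells, with no stimulus added. The members of this comparison are the 5 unstimulated libraries among the 10 of the study, chosen by the treatment and stimulation in their labels. Of these, 3 carried the vehicle DMSO and 2 carried 12.5 µM Compound 10, each given as a pretreatment of 1 h, and they shared every other labelled condition. How long unstimulated cells were kept after that hour is not given in the labels. All cells came from spleens of C57BL/6 mice and were sorted as CD4+CD62L+CD69-, a gate that enriches naive helper T cells and names no CD44 limit. The other 5 libraries (2 vehicle, 3 Compound 10) came from cells then stimulated for 2 h, with PMA at 10 nM to activate protein kinase C and ionomycin at 1 µM to let calcium in, and serve here as the stimulated counterpart. The labels give no genotype beyond the strain, no age, and nothing on whether replicate libraries stem from different mice or cultures. All p-values therefore refer to the variation among the libraries at hand, part or all of which can be technical.

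The study describes Compound 10 as an inhibitor of the complex that the calcium-regulated transcription factor NFAT forms with AP-1, the dimer of Fos and Jun proteins. In a naive T cell NFAT is held in the cytoplasm in a phosphorylated form. Antigen raises calcium, calcineurin dephosphorylates NFAT, and NFAT binds DNA beside AP-1 at genes such as Il2. Without a stimulus little of this complex is formed, and the comparison asks what the compound does in that state. RNA was read with a full-length SMART-seq protocol that does not mark the strand. Levels below are in CPM, counts scaled to library size with TMM factors, except for sums over cell type markers, which use library totals alone. In bulk RNA, fewer cells of a type and less RNA per cell cannot be told apart.

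The 5 libraries held between 12580160 and 33486259 estimated counts, and the filter on low counts left 14417 of 45321 genes for testing. Vehicle library 3 and Compound 10 library 2 were the deepest of the 10. On the first 2 principal components of the resting libraries, which held 39.4% and 35.0% of the variance, vehicle library 3 lay away from the other vehicle libraries and the 2 Compound 10 libraries lay away from each other. Their table names carry neighbouring index numbers, 25 and 26, and vehicle library 2 and Compound 10 library 1 carry 19 and 20. What these numbers stand for is not given in the sources used here. Within each of these pairs the deviations from the group means were correlated across genes (r = 0.73 and r = 0.50). Vehicle library 1 and Compound 10 library 1, which are in different index sets, correlated as well (r = 0.65), and with 2 Compound 10 libraries the deviation of one is the mirror image of that of the other. These values therefore do not establish the index set as a batch. A fit with the index set as a block and fits that left out libraries were run as alternatives. The helper T cell genes Cd3e (96.6 to 233 TPM, a unit scaled by transcript length and library size) and Cd4 (88.2 to 196 TPM) were present in each library. Of the CD8 T cell genes, Cd8a lay at 0 to 0.0747 TPM and Cd8b1 at 2.88 to 8.27 TPM. Of the B cell markers, Cd79a lay at 2.01 to 4.36 TPM and Cd74 at 64.5 to 161 TPM. The myeloid gene Lyz2 lay at 0 to 1.08 TPM, and the NK cell gene Ncr1 had 0 counts in each of the 5 libraries. Cd69 RNA was present at 305 to 397 TPM although the cells were sorted as negative for its protein.

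With Compound 10, 670 genes were higher and 545 were lower than with vehicle, which is 8.43% of the genes tested (4.65% higher and 3.78% lower; edgeR quasi-likelihood test, Benjamini-Hochberg adjusted p under 0.05). Genes called at least 2-fold higher numbered 376 and at least 2-fold lower 260, and 74 and 62 passed 4-fold. The groups' libraries did not overlap for 1214 of the 1215 called genes, against 37.9% of all tested genes. The call itself favours groups that do not overlap, so this count is no separate support. Among the called genes 1149 were protein coding. The count depended on which libraries set the spread. With the 5 resting libraries alone, 122 genes were called (86 higher and 36 lower), of which 121 were also called with all 10 libraries, and with the index set as a block 2403 were called, including 1210 of the 1215. Leaving out 1 library gave 325 genes without Compound 10 library 2 and 645 without Compound 10 library 1. It gave 556 without vehicle library 1, 615 without vehicle library 2, and 753 or 749 without a stimulated vehicle library. Without both of the deepest libraries, 598 were called, 507 of them among the 1215. With library totals as the only scaling, the split turned to 470 higher and 637 lower.

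**Figure D1:**
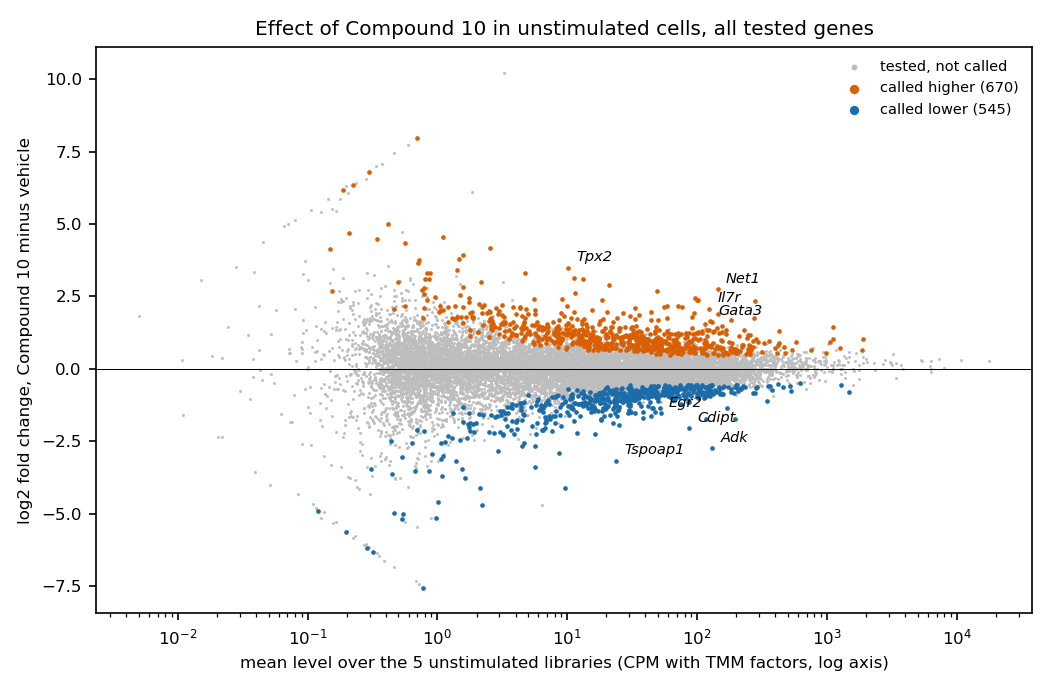
Log2 fold change of Compound 10 over vehicle (y axis) against mean level over the 5 unstimulated libraries (x axis, CPM, log scale), 1 point per tested gene. The 670 genes called higher (orange) and the 545 called lower (blue) lie across the whole range of levels, and grey points did not pass the test.

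The largest rises were led by genes of cell division. Among named genes with a mean of at least 8 CPM, Tpx2, Cenpe, Bub1b, Plk4, Incenp and Dlgap5 were 6 of the 12 largest. Tpx2, whose protein builds the spindle and activates Aurora kinase A (chromosome 2, 152847964 to 152895321, mm10), lay at 2.30, 2.84 and 0.918 CPM in the vehicle libraries and at 21.7 and 22.9 CPM with Compound 10. Both treated libraries stood far above the 3 controls, and the log2 fold change was 3.50 ± 0.37 (SE; adjusted p = 0.00050). Cenpe, a kinesin that links kinetochores to microtubules (chromosome 3, 135212537 to 135273611), lay at 2.79, 2.66 and 2.87 CPM against 24.8 and 23.7 CPM. The libraries within each group were nearly equal, and the log2 fold change was 3.12 ± 0.22 (SE; adjusted p = 3.6e-05). Bub1b, the spindle checkpoint kinase BubR1 (chromosome 2, 118598211 to 118641591), lay at 1.70, 5.13 and 2.95 CPM against 31.5 and 24.6 CPM. The vehicle libraries varied among themselves by less than the gap to the treated ones, and the log2 fold change was 3.10 ± 0.34 (SE; adjusted p = 0.00072).

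Plk4, the kinase that starts centriole duplication, was at 7.67, 4.52 and 5.36 CPM with vehicle and at 43.8 and 42.9 CPM with Compound 10, a log2 fold change of 2.90 ± 0.21. Incenp, the scaffold of the chromosomal passenger complex, was at 19.6, 17.99 and 8.95 against 114 and 86.3 CPM (2.70 ± 0.29). Dlgap5, a spindle protein also called HURP, was at 3.999, 3.54 and 3.70 against 21.8 and 24.5 CPM (2.63 ± 0.24). The groups did not overlap for any of the 3, which the choice of the largest changes required. Protein-coding transcripts held 79.5% to 100% of the counts of these 6 genes in each library, and the rest fell on retained-intron or other non-coding models. The transcript with the most counts differed between the groups for Tpx2 (Tpx2-207 with vehicle, Tpx2-202 with Compound 10) and Dlgap5 (Dlgap5-203 and Dlgap5-201). Their vehicle libraries held only 134.5 and 277.8 estimated counts in all. Each of the 6 was called with the 5 resting libraries alone (adjusted p = 0.0056 to 0.032) and in all 10 fits that left out 1 library.

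The promoters below are shown for the 2 largest rises and the 2 largest falls that the RefSeq table holds (15 of the 24 largest changes had an entry, Tpx2 and Tspoap1 not among them). Each runs from 250 bases before to 50 after the gene's start on build GRCm38.p6. Capitals mark the NFAT core GGAAA, the AP-1 site TGANTCA, the cyclic AMP response element TGACGTCA and the cell cycle homology element TTTGAA or TTCGAA, each searched on both strands and counted separately, so a base may fall in more than 1. The last motif was added after the results were seen.
Cenpe, chr3:135212313-135212612, plus strand: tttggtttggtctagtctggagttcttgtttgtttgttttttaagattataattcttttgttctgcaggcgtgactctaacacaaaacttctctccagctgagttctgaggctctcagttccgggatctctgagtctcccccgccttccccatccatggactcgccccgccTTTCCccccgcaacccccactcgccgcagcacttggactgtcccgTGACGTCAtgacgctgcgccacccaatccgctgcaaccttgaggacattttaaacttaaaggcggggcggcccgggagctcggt
Bub1b, chr2:118597961-118598260, plus strand: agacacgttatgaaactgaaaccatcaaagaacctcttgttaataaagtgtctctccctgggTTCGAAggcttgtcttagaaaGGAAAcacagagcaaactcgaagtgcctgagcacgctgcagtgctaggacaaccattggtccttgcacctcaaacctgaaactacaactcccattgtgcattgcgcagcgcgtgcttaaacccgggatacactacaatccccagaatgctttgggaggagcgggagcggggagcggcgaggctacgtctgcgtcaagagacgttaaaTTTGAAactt
Avil, chr10:127000459-127000758, plus strand: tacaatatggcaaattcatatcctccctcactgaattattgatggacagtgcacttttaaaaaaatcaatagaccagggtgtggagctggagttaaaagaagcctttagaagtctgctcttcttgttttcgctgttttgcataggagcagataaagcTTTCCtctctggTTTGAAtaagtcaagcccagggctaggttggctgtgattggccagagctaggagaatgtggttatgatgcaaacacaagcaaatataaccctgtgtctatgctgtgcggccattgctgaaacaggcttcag
Adk, chr14:21052324-21052623, plus strand: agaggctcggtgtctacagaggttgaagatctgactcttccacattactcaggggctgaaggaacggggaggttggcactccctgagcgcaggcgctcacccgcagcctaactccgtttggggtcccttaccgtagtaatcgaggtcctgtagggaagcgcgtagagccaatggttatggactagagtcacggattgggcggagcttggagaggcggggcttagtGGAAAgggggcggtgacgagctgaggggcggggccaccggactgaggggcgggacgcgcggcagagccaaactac
All 4 hold 1 NFAT core, whichever way the gene moved. The cyclic AMP response element occurs in Cenpe alone of these 4. Bub1b has 2 cell cycle homology elements, 1 of them shortly after the start, and Avil has 1. None of the 4 holds the AP-1 site.

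Over whole groups of promoters the shares were close to those of all tested genes. The NFAT core occurred in 61.9% of the promoters of genes that rose (308 of 498) and in 58.5% of those that fell (249 of 426), against 59.0% of all tested genes with an entry (5786 of 9804). The AP-1 site occurred in 6.22% and 6.10% against 4.77%, and the cyclic AMP response element in 4.22% and 3.99% against 3.31%. The cell cycle homology element occurred in 17.3% and 15.02% against 14.5%. In the mitotic list it occurred in 74.2% of the tested members with an entry (23 of 31) and in 76.9% of those that rose (10 of 13). These shares depended on the 50 bases after the start. With only the 250 bases before it they were 25.8% (8 of 31) and 15.4% (2 of 13), against 12.7% of all tested genes. In the longer window the mitotic genes that rose held it about as often as the list they came from.

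In the list of mitotic spindle and kinetochore genes, 15 of 36 tested members rose and 1 fell, with a median log2 fold change of 0.51, against 0.0022 over all tested genes. These are 41.7% and 2.78% of the members. Over all tested genes 4.65% were called higher and 3.78% lower, the shares to set beside each list below. All lists were chosen with earlier results of these data known, so their shares describe the genes and test nothing. This list also holds Tpx2, Cenpe, Bub1b and Incenp, which were picked above for the size of their rise. Besides those above, Anln, the actin-binding protein anillin of the cleavage furrow, had 23 counts in the 3 vehicle libraries and 327 in the 2 treated ones. Ttk, the checkpoint kinase Mps1, had 9 and 86. Kif23 (1.61 ± 0.20) and Kifc1 (1.55 ± 0.18), which are spindle kinesins, and Cenpa, the histone H3 variant of centromeres (1.33 ± 0.13), rose with no overlap. Cenpa went from 77.8, 81.8 and 70.7 CPM to 195 and 191 CPM. Ndc80, Nusap1, Prc1, Top2a, Mad2l1 and Aurka rose by 0.73 to 1.33, calls that held in 10, 7, 9, 9, 8 and 1 of the 10 fits that left out 1 library. Cdca8, a passenger complex subunit like Incenp, was the 1 member that fell, by 1.28 (adjusted p = 0.047), which held in 3 of the 10. Ttk was not called without Compound 10 library 2 (adjusted p = 0.056), while Anln, Kif23, Kifc1 and Cenpa held in all 10.

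Other members of the list did not pass. The proliferation marker Mki67 had 48 counts with vehicle and 33 with Compound 10, and its level ranged from 0.316 to 1.07 CPM and from 0.151 to 1.72 CPM, so the groups overlapped. Aurkb, the kinase partner of Incenp, had 50 and 28 counts. Birc5 (log2 fold change 0.21, adjusted p = 0.76), Plk1 (-0.51, adjusted p = 0.67) and Aspm (-0.22, adjusted p = 0.84) were also not called. The number of members called higher ranged from 9 to 15 over the 10 fits that left out 1 library, with 9 without Compound 10 library 2. It was 11 without both of the deepest libraries, 8 with the resting libraries alone and 15 with the index set as a block. With library totals as the only scaling it was 14.

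**Figure D2:**
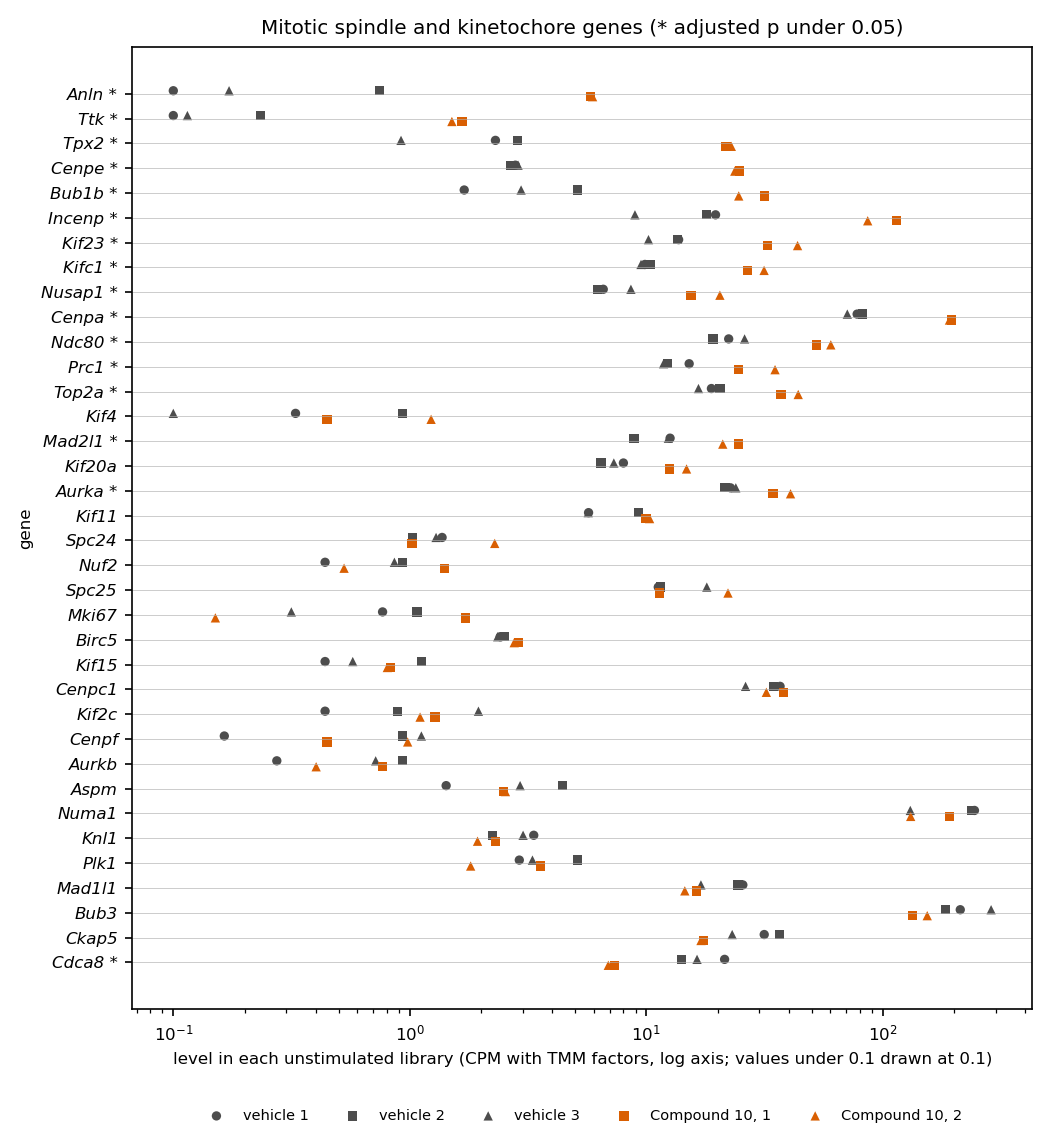
Level of each of the 36 tested mitotic spindle and kinetochore genes in each unstimulated library (x axis, CPM, log scale, values under 0.1 drawn at 0.1), ordered by log2 fold change. Vehicle libraries are grey and Compound 10 libraries orange, squares and triangles mark the 2 index pairs, and the 16 genes with an asterisk passed the test (15 higher, Cdca8 lower).

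The other large rises came from genes of varied function. Net1, an exchange factor that activates the GTPase RhoA (chromosome 13, 3882018 to 3918220), was at 36.7, 45.9 and 47.0 CPM with vehicle and at 300.2 and 289 CPM with Compound 10. Both treated libraries lay far above the highest control, and the log2 fold change was 2.77 ± 0.15 (SE; 6.81-fold, adjusted p = 1.2e-05). Jmjd1c, a JmjC-domain histone demethylase, was at 35.3, 40.9 and 27.7 against 214 and 167 CPM (2.46 ± 0.24). For both genes the lack of overlap between the groups was a condition of their choice.

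C9orf72, whose protein acts in autophagy and membrane traffic, rose by 2.40 ± 0.19. Mgat1, the transferase that starts complex N-glycans, rose by 2.39 ± 0.16, from 38.4, 39.0 and 36.3 CPM to 183 and 213 CPM. Lzts2, a leucine zipper protein of the microtubule cytoskeleton, was at 5.04, 2.28 and 2.67 against 23.6 and 12.1 CPM (2.43 ± 0.38). The treated libraries differed from each other about as much as the controls did, and Lzts2 was the 1 gene of the 12 not called with the resting libraries alone (adjusted p = 0.054). All 12 rises were called in every fit that left out 1 library.

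The largest fall was that of Tspoap1, a scaffold protein that binds the mitochondrial translocator protein TSPO (chromosome 11, 87760541 to 87785928). It went from 42.5, 41.0 and 27.0 CPM to 3.96 and 4.17 CPM, a log2 fold change of -3.17 ± 0.24 (SE; adjusted p = 5.8e-05). Vehicle library 3 was the lowest control and still lay well above both treated libraries. Avil, the villin-family actin-binding protein advillin (chromosome 10, 127000709 to 127020994), went from 12.8, 13.4 and 13.6 CPM to 1.34 and 2.08 CPM (-2.92 ± 0.37, adjusted p = 0.0014). Adk, adenosine kinase, which converts adenosine to AMP (chromosome 14, 21052574 to 21448569), went from 211, 172 and 214 CPM to 27.9 and 32.1 CPM. It fell 6.63-fold (-2.73 ± 0.18, adjusted p = 2.7e-05). Only 1 transcript of Adk, a protein-coding one, was among those quantified, so its counts could lie on no other.

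Cdipt, the enzyme that makes phosphatidylinositol, fell from 120.0, 111 and 144 CPM to 28.5 and 32.2 CPM (-2.04 ± 0.18). Tpgs1, a subunit of tubulin polyglutamylase, fell by 1.87 ± 0.29 and the zinc finger gene Zfp606 by 1.87 ± 0.26. Nek1, a kinase of cilia and DNA repair, fell by 1.78 ± 0.26. These falls, like those of Tspoap1, Avil and Adk, were called in every fit that left out 1 library. The other 5 of the 12 depended on single libraries. Atf3, a stress-induced bZIP factor, was at 28.5, 13.6 and 10.0 CPM against 5.94 and 1.91 CPM (-2.23 ± 0.50, adjusted p = 0.024). It was not called without Compound 10 library 2 (-1.53, adjusted p = 0.16) or vehicle library 1 (-1.66, adjusted p = 0.052). Tmem229b (-2.24) was not called without Compound 10 library 2 (adjusted p = 0.069), vehicle library 1 (0.052) or vehicle library 2 (0.065). Ptk2, focal adhesion kinase (-1.97), was not called without any 1 of vehicle libraries 1 and 2 and Compound 10 libraries 1 and 2 (adjusted p = 0.056, 0.050, 0.082 and 0.11). The adaptor gene Lat2 (-1.80) was not called without Compound 10 library 1 (adjusted p = 0.082) or 2 (0.10), and the chromatin protein gene L3mbtl2 (-1.93) not without Compound 10 library 2 (0.056). With the resting libraries alone 7 of the 12 falls and 11 of the 12 rises were called, and with the index set as a block all 24.

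**Figure D3:**
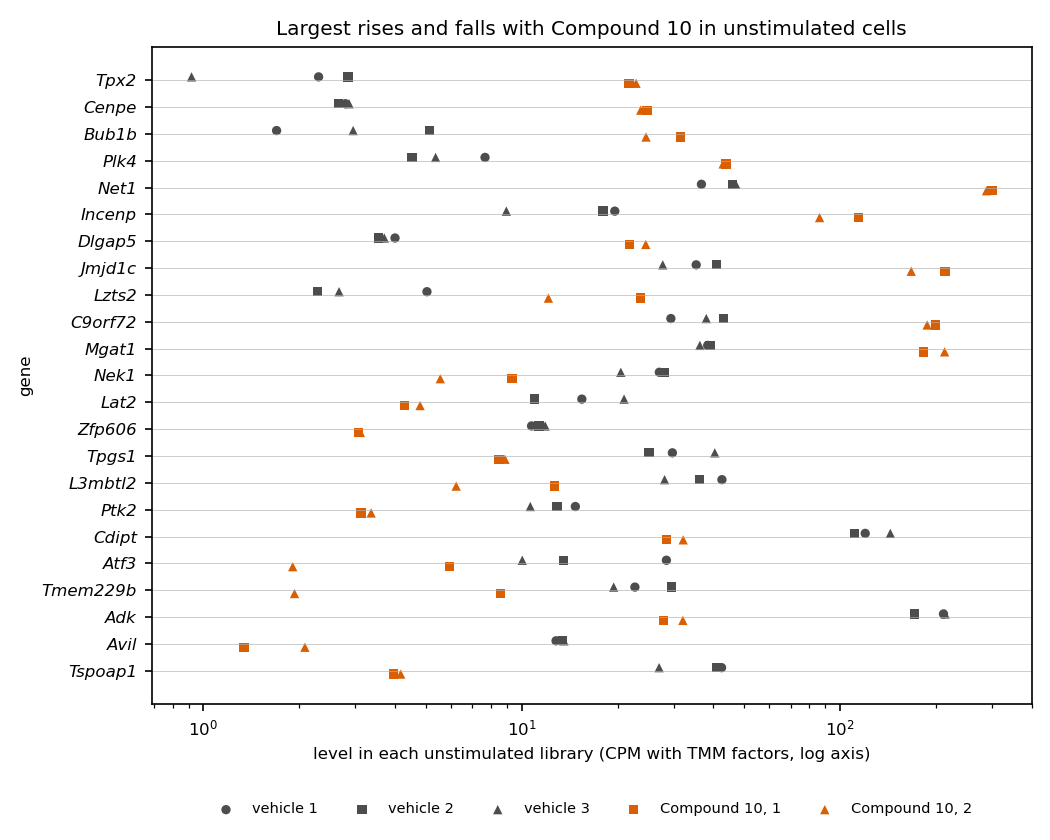
Level in each unstimulated library (x axis, CPM with TMM factors, log scale) of 11 of the 12 largest rises and of the 12 largest falls among named genes with a mean of at least 8 CPM. Vehicle libraries are grey and Compound 10 libraries orange, and the groups do not overlap for any gene because the choice required it. Tpx2 heads the rises at 21.7 and 22.9 CPM with Compound 10, and Tspoap1 ends the falls at 3.96 and 4.17 CPM.

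A panel of 16 genes of T cell activation showed what the compound did to them with no stimulus. By edgeR 1 of 16 was called, and this was Egr2, a zinc finger factor induced by NFAT. Over all genes 8.43% were called, but the panel includes Il2, Il3, Csf2 and Ifng. These passed the filter on low counts through the stimulated libraries and were too low at rest to be called. The panel's share is therefore not directly comparable with that of all genes. DESeq2 called 0 higher and 2 lower, and edgeR with the index set as a block called 2 higher and 2 lower. Egr2 was at 106, 63.8 and 43.1 CPM with vehicle and at 28.4 and 20.6 CPM with Compound 10, a log2 fold change of -1.54 ± 0.31 (SE; adjusted p = 0.015). The control libraries varied widely, and the lowest of them lay above both treated libraries. Egr2 was not called without Compound 10 library 2 (-1.32, adjusted p = 0.13) or with the resting libraries alone (adjusted p = 0.097).

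Cd40lg, the CD40 ligand of helper T cells, was at 65.0, 35.6 and 26.4 CPM against 23.9 and 15.2 CPM (-1.12 ± 0.33, adjusted p = 0.059). Tnf was at 46.6, 30.1 and 22.8 against 53.3 and 50.9 CPM (0.66 ± 0.25, adjusted p = 0.13), and Jun at 145, 124 and 85.8 against 197 and 158 CPM (0.58 ± 0.21, adjusted p = 0.11). With the index set as a block all 3 were called, Cd40lg at -0.89 (adjusted p = 0.031), Tnf at 0.86 (adjusted p = 0.0075) and Jun at 0.63 (adjusted p = 0.031). Egr1 (0.32), Fos (0.20), Myc (0.12), Cd69 (-0.06), Nfatc1 (-0.09), Nfkbia (-0.18), Nr4a1 (-0.29) and Il2ra (-0.03) had adjusted p between 0.33 and 0.96. Il2 had 4 counts over the 3 vehicle libraries and 2 over the treated ones, and Ifng 5 and 6. Il3 and Csf2 had 0 counts in each of the 5 libraries. At rest Il2, Il3, Csf2 and Ifng were thus too low for a difference to be detectable at this depth.

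Genes of the NFAT pathway and of NFAT-driven anergy and exhaustion were called in both directions, with 4 of 31 higher, 3 lower and a median of 0.18. Without either Compound 10 library, or without vehicle library 1 or 2, 1 was higher and 0 or 1 lower, and without either stimulated vehicle library 2 were higher and 2 lower. Ppp3ca, the catalytic subunit of calcineurin that activates NFAT, fell from 40.3, 53.7 and 71.8 CPM to 20.8 and 24.5 CPM (-1.29 ± 0.24, adjusted p = 0.0097). Of the calcium entry genes, Orai2, a channel subunit, rose by 0.86 ± 0.20, and Stim2, a calcium sensor of the endoplasmic reticulum, rose by 1.19 ± 0.28. Its relative Stim1 fell by 0.77 ± 0.21 (adjusted p = 0.047), a call that held in 1 of the 10 fits that left out 1 library. Dgkz, a kinase that removes diacylglycerol, rose by 0.88 ± 0.21. None of these 5 held in all such fits or was called with the resting libraries alone. The highest adjusted p was 0.059 for Ppp3ca, 0.16 for Orai2 and 0.11 for Dgkz, all without Compound 10 library 1, and 0.21 for Stim2 without Compound 10 library 2. With library totals as the only scaling the list stood at 2 higher and 3 lower.

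Among AP-1 and other bZIP factors 2 of 23 rose and 2 fell (median 0.20). Junb, a Jun protein, rose from 678, 791 and 851 CPM to 1304 and 1623 CPM (0.92 ± 0.16, adjusted p = 0.0071). Atf4, the effector of the integrated stress response, rose from 243, 220.4 and 165 CPM to 407 and 306 CPM (0.77 ± 0.19). Atf5 fell by 1.81 ± 0.38 and Atf3 as above. Without Compound 10 library 2 neither Junb (adjusted p = 0.062) nor Atf5 (0.13) was called. Atf5 was called in 7 and Atf4 in 5 of the 10 fits that left out 1 library.

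In the immediate-early and MAPK feedback list 8 of 36 rose and 1, Egr2, fell (median 0.32). Dusp5 and Dusp6, phosphatases that switch off ERK, rose by 1.17 ± 0.17 and 1.22 ± 0.18. Gadd45a, a growth arrest gene, rose from 23.8, 31.8 and 30.8 CPM to 62.4 and 93.0 CPM (1.43 ± 0.21), and the zinc finger factor Klf6 rose by 0.89 ± 0.14. Each of the 4 was called in every fit that left out 1 library. The count of rises ranged from 4, without Compound 10 library 2, to 10 over those fits, and was 1 with the resting libraries alone. Among NF-kB subunits and targets 4 of 28 rose and 0 fell by edgeR (median 0.17; 1 lower at an unadjusted p under 0.05 and 0 by DESeq2). Only 1 rose without Compound 10 library 1, and 2 rose without vehicle library 1 or either stimulated vehicle library. Cflar, an inhibitor of caspase-8, rose by 0.90 ± 0.14 and held in every such fit, while Tnip2 (0.78), Tnfrsf9 (0.87) and Birc3 (0.55) held in 9, 5 and 1 of the 10.

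Of 23 cytokine and chemokine genes 4 rose and 2 fell (median 0.31), and 2 rose without Compound 10 library 2 or vehicle library 2. Tnfsf11, the cytokine RANKL, rose from 2.41, 1.86 and 2.01 CPM to 10.0 and 7.78 CPM (2.08 ± 0.21, adjusted p = 0.00036). Tnfsf8, the ligand of CD30, rose from 5.04, 4.52 and 3.44 CPM to 11.5 and 14.6 CPM (1.60 ± 0.25, adjusted p = 0.0048). The treated libraries lay above all controls for both ligands, and both were called in every fit that left out 1 library. Lif, a cytokine of the interleukin-6 family, fell from 75 counts to 9 (-2.56 ± 0.44), but not without Compound 10 library 2 (adjusted p = 0.078). The chemokine gene Cxcl10 fell by 1.31 ± 0.29 and held in 6 of the 10 fits. With library totals as the only scaling the list stood at 3 higher and 3 lower. The list includes Il2, Il3, Csf2 and Ifng, which were too low at rest to be called.

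Of the genes near the T cell receptor, 9 of 31 rose, 1 fell and 21 were not called (median 0.33). The count of rises was 4 with the resting libraries alone and 6 to 9 over the fits that left out 1 library. Cd5, a receptor that dampens receptor signals, was at 53.7, 48.4 and 35.8 CPM with vehicle and at 198 and 123 CPM with Compound 10 (1.80 ± 0.21, adjusted p = 0.0010). Its relative Cd6 was at 104, 102 and 107 against 293 and 233 CPM (1.33 ± 0.14, adjusted p = 0.00047). Lcp2, the adaptor SLP-76, was at 26.2, 24.7 and 39.0 against 104 and 97.5 CPM (1.75 ± 0.22), and Malt1, a protease that carries the signal to NF-kB, at 28.4, 30.1 and 20.1 against 92.6 and 77.7 CPM (1.70 ± 0.20). All 4 were called in every fit that left out 1 library and with the resting libraries alone (adjusted p = 0.029 to 0.036). Cd28, Grap2, Themis, Prkcq and Ptprc rose by 0.67 to 1.25, calls that held in 10, 8, 9, 9 and 1 of the 10 fits. Ubash3a, which restrains receptor signals, fell by 0.89 and held in 8.

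Naive and quiescence genes had 8 of 34 higher and 1 lower (median 0.37). The count of rises was 5 without either Compound 10 library, vehicle library 2 or either stimulated vehicle library, and 3 with the resting libraries alone. Il7r, the receptor for the survival cytokine interleukin-7, went from 61.6, 51.3 and 49.9 CPM to 247 and 213 CPM, a log2 fold change of 2.08 ± 0.16 (SE; adjusted p = 6.2e-05). The 3 controls were tightly grouped and the treated libraries lay far above them. Pik3ip1, an inhibitor of PI3 kinase, rose by 1.32 ± 0.17, Id3, an inhibitor of E proteins, by 1.20 ± 0.16, and the chromatin organiser Satb1 by 0.97 ± 0.16. Slfn2, a schlafen gene of quiescence, fell by 0.66 ± 0.14 and held in 8 of the 10 fits that left out 1 library. Il7r, Pik3ip1, Id3 and Satb1 were called in every fit that left out 1 library, and the first 3 also with the resting libraries alone.

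Markers of other cells moved in part with these groups. Of 11 tested memory or effector markers 4 rose and 0 fell. The 14 listed genes summed to 190 to 233 CPM of the library total with vehicle and to 424 to 499 with Compound 10 (2-sided exact permutation p = 0.10, the smallest that 2 against 3 libraries allow). Gata3, the factor of type 2 helper cells, made up most of the sum in both treated libraries. It went from 52.9, 56.6 and 92.5 CPM to 180.2 and 243 CPM with TMM factors (1.65 ± 0.24, adjusted p = 0.0034). Cd44, Il2rb and Ahnak rose by 1.42, 1.76 and 1.24. These 4 calls held in every fit that left out 1 library. T cell identity genes summed to 2489 to 2687 against 2927 to 3100 CPM (exact permutation p = 0.10) with 1 of 10, Cd5, called. Regulatory T cell markers summed to 101 to 105 against 113 to 122 CPM (exact permutation p = 0.10), with Nrp1 the 1 of 8 called (in 7 of the 10 fits) and Foxp3 at 1.12 to 2.45 TPM in the 5 libraries.

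Of 11 tested B cell markers 0 were called by edgeR or by DESeq2, with 2 higher at an unadjusted p under 0.05, and their sum was 57.7 to 119 CPM with vehicle and 132 to 165 with Compound 10 (exact permutation p = 0.20), most of it Cd74. Myeloid markers summed to 51.0 to 75.7 CPM with vehicle and 35.0 to 41.1 CPM with Compound 10 (exact permutation p = 0.20; median log2 fold change -0.07), with Cd68 lower by 1.34 as the 1 of 6 called (in 7 of the 10 fits). NK cell markers summed to 3.29 to 6.20 against 5.87 to 9.29 CPM, with Nkg7 the 1 of 4 called, at 2 counts against 39 and in 1 of the 10 fits, and with Ncr1 at 0. Of the erythroid and CD8 markers 0 of 6 and 1 of 2 passed the filter on low counts. The CD8 marker, Cd8b1, was not called by edgeR or DESeq2, and 0 passed an unadjusted p of 0.05. Counts on transcripts with a retained intron made up 5.06% to 5.57% of a vehicle library and 5.57% to 5.87% of a treated one (exact permutation p = 0.30). The part of these markers in the results above was not tested.

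Stress genes gave a mixed picture. Of 19 heat shock genes 3 rose and 1 fell (median -0.04). Hspa1a, the inducible chaperone HSP70, went from 35.8, 30.9 and 32.1 CPM to 136 and 150.2 CPM (2.12 ± 0.22, adjusted p = 0.00041) and its near-identical copy Hspa1b from 5.70, 4.33 and 6.48 to 18.5 and 18.6 CPM (1.74 ± 0.31). Reads of these copies are shared out by estimate, so the value of each is uncertain. Both held in every fit that left out 1 library, but Hsp90aa1 (0.55) and the co-chaperone gene Ahsa1 (-0.61) held in 1 of the 10. In the integrated stress and unfolded protein response 6 of 26 rose and 2 fell (median 0.24), among them Dnajb9 (0.82), Xbp1 (0.56) and Edem1 (0.53), which act in the endoplasmic reticulum. The count of rises ranged from 0, without vehicle library 2, to 8 over those fits. It was 1 without vehicle library 1, Compound 10 library 2 or either stimulated vehicle library, and 2 without Compound 10 library 1.

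NRF2 targets had 0 of 28 higher and 2 lower by edgeR (median 0.03; 3 higher at an unadjusted p under 0.05 and 1 higher by DESeq2). Without vehicle library 1 they stood at 2 higher and 0 lower, and with the index set as a block at 3 higher and 2 lower. In the fit with all 10 libraries and no block, Gsr was lower by 0.76 and Taldo1 by 0.69. Of 3 tested aryl hydrocarbon receptor targets Tiparp rose by 0.72 and none fell. Over the 10 fits that left out 1 library these calls held in 1, 6 and 7. Among p53 targets 3 of 27 rose and 4 fell (median 0.0075), and 1 rose and 1 fell without Compound 10 library 2. The falls numbered 1 without Compound 10 library 1 and 2 without vehicle library 1 or 2. Cdkn1a, the cell cycle inhibitor p21, went from 16.7, 14.9 and 20.9 CPM to 51.4 and 75.9 CPM (1.86 ± 0.22, adjusted p = 0.0010) and held in every fit that left out 1 library. The kinase gene Plk2 rose by 1.09 ± 0.17, while Aen, an exonuclease of apoptosis, and Ccng1 fell by 1.36 ± 0.24 and 0.92 ± 0.17. These 3 were not called in 1 fit each, Plk2 and Aen without Compound 10 library 2 (adjusted p = 0.056 and 0.076) and Ccng1 without Compound 10 library 1 (0.066).

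Of the metabolic lists, glycolysis and hypoxia had 16.1% of members called higher and 0% lower. Cholesterol and fatty acid synthesis had 9.68% and 6.45%, and autophagy and lysosome 10.5% and 2.63%. Over all tested genes the shares were 4.65% and 3.78%. In glycolysis and hypoxia 5 of 31 rose and 0 fell by edgeR (median 0.20; 0 lower at an unadjusted p under 0.05 and 0 by DESeq2). The count of rises was 2 without Compound 10 library 2, 5 without vehicle library 3 and 3 without any 1 of the other 8 libraries. Hk2, the inducible hexokinase, went from 1.48, 2.19 and 1.23 CPM to 7.28 and 6.98 CPM (2.13 ± 0.30, adjusted p = 0.0032), and Pfkfb4, a regulator of glycolytic flux, rose by 1.26 ± 0.22. Both held in every fit that left out 1 library. Cholesterol and fatty acid synthesis had 3 of 31 higher and 2 lower (median 0.10; 1 higher without Compound 10 library 1 or vehicle library 1 or 2), with Mvk and Scd2 higher by 1.15 and 1.40 and Insig2 lower by 0.88, held in 7, 6 and 7 of the 10 fits. Autophagy and lysosome genes had 4 of 38 higher and 1 lower (median 0.02; 2 higher without either Compound 10 library). Flcn and its partner Fnip1, which sense nutrients at the lysosome, rose by 0.81 ± 0.14 and 1.04 ± 0.22 and held in 10 and 9.

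Genes of DNA replication had 3 of 39 higher, 5 lower and 31 not called, with a median of -0.09. Orc1, of the origin recognition complex, and the ligase gene Lig1 rose by 1.48 ± 0.24 and 1.10 ± 0.23 and held in 10 and 8 of the 10 fits that left out 1 library. Mcm5, of the replicative helicase, went from 56.1, 46.6 and 42.2 CPM to 25.1 and 23.7 CPM (-0.98 ± 0.18, adjusted p = 0.0085), and Rpa1, which coats single-stranded DNA, from 366, 330.0 and 323 CPM to 200.2 and 178 CPM (-0.84 ± 0.14). The latter pair was not called without Compound 10 library 2 (adjusted p = 0.081 and 0.067), and in that fit 1 gene of the list rose and 0 fell. The difference from the mitotic list was not tested.

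In the remaining 7 lists the shares called higher ran from 5.26% (RNA polymerase II and splicing) to 11.1% (BCL2 family). Interferon and MHC class I genes had 10.3% and 10%, and the share over all tested genes was 4.65%. Shares called lower ran from 0% to 5.26%, against 3.78%. The Myc network with ribosome biogenesis had 3 of 37 higher and 1 lower, led by Mxd1, an antagonist of Myc, at 0.95 ± 0.16. Interferon response genes had 4 of 39 and 1, RNA polymerase II genes 2 of 38 and 0, splicing regulators 2 of 38 and 2, and genes of the WAVE complex and actin 2 of 31 and 0. By DESeq2 2 RNA polymerase II genes were lower (5 at an unadjusted p under 0.05), and edgeR with the index set block called 4 lower. The BCL2 family had 2 of 18 higher and 0 lower, with the survival gene Bcl2 at 0.91 ± 0.16, and MHC class I genes had 2 of 20 and 1. In the splicing list Srsf6 and Hnrnpa2b1 fell by 0.83 ± 0.15 and 0.62 ± 0.13, and Srsf2 and Hnrnph3 rose by 1.02 ± 0.27 and 0.54 ± 0.15. For Srsf2 the groups overlapped, at 1119, 1101 and 1796 CPM with vehicle and 1789 and 3647 CPM with Compound 10. Over the 10 fits that left out 1 library Mxd1 held in 10, Bcl2 in 9, Srsf6 in 8 and Hnrnpa2b1 in 7. Without Compound 10 library 2 the rises in these lists numbered 1 for Myc, 1 for interferon and 0 for the other 5. Interferon genes also had 1 rise without Compound 10 library 1, vehicle library 1 or stimulated Compound 10 library 2. WAVE genes had 0 without vehicle library 2, MHC class I genes 0 without Compound 10 library 1 or vehicle library 1 or 2, and splicing regulators 0 in 7 of the 10 fits. Over those fits the rises ranged from 1 to 2 for Myc, 1 to 4 for interferon, 0 to 3 for RNA polymerase II and BCL2, and 0 to 2 for the other 3. For WAVE and BCL2 genes 1 each was lower at an unadjusted p under 0.05, and 0 by DESeq2. Medians of these 7 lists lay between -0.04 and 0.29.

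**Figure D4:**
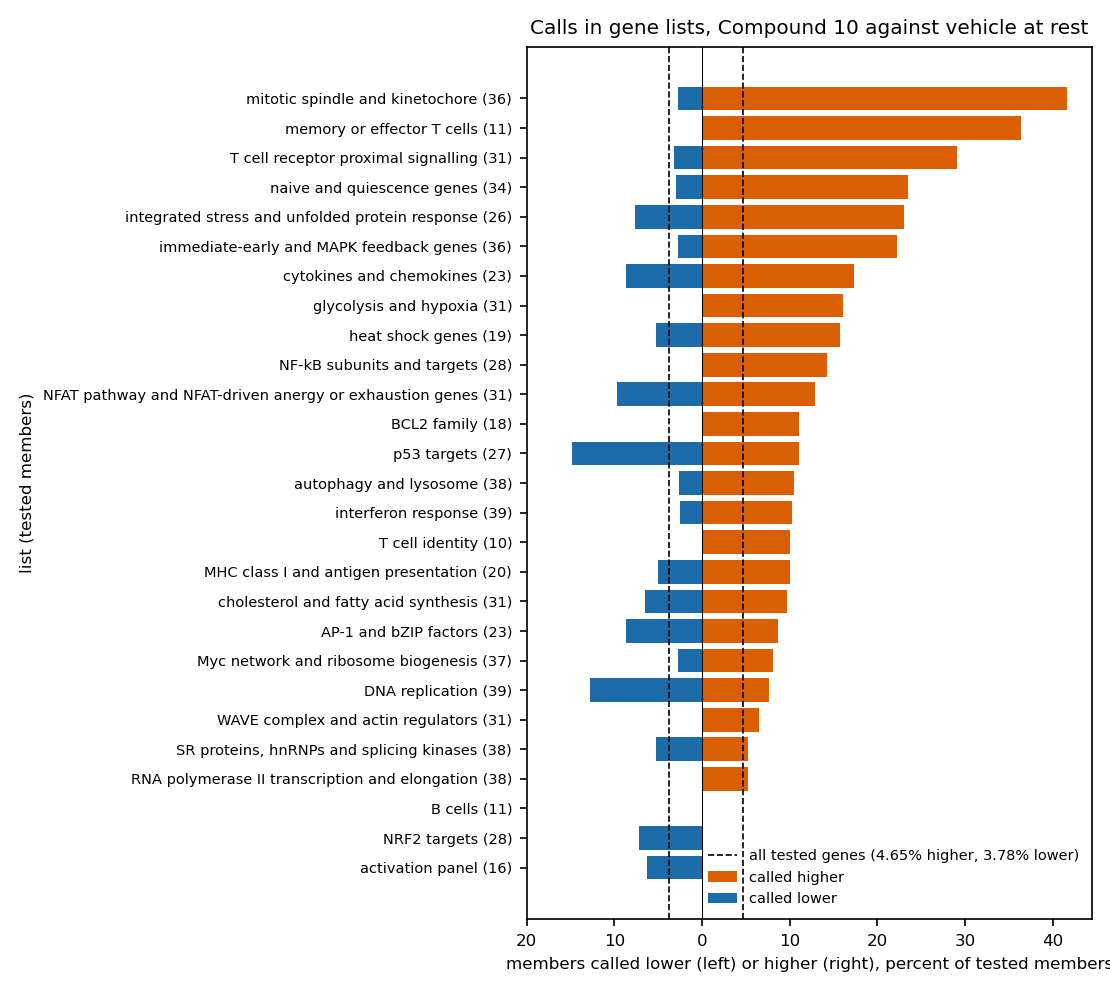
Percent of the tested members of each list with at least 10 tested members (number in brackets) that were called higher (right, orange) or lower (left, blue) with Compound 10. Dashed lines show the share over all tested genes, 4.65% higher and 3.78% lower. The mitotic list has the longest bar, 15 of 36, while 0 of 28 NRF2 targets and 0 of 16 panel genes were called higher by edgeR (3 and 2 at an unadjusted p under 0.05, 1 and 0 by DESeq2). The panel includes Il2, Il3, Csf2 and Ifng, which were too low at rest to be called.

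The same contrast in stimulated cells used 5 other libraries and shared no sample with the resting one, though all 10 entered 1 estimate of spread. Total time with the compound may have differed between the states, since it is not given for unstimulated cells. Of the 1215 genes called at rest, 950 (78.2%) had the same sign in stimulated cells, against 62.5% of all tested genes. Of them 564 were called in the same direction there, which is 46.4% of the resting calls and 16.8% of the 3350 calls in stimulated cells (23.2% of genes tested; 10.4% higher and 12.8% lower). Another 60 were called in the opposite direction. Over all 14417 genes the effects at rest and in stimulated cells had Pearson r = 0.27 and Spearman rho = 0.33, and r = 0.44 over the 7976 genes with a mean of at least 8 CPM. Genes are not independent replicates, and these values only describe the 10 libraries.

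Of the 6 leading mitotic genes, 4 had a like log2 fold change in both states. Tpx2 rose by 3.50 at rest and 3.58 in stimulated cells, Cenpe by 3.12 and 3.33, Plk4 by 2.90 and 3.03, and Incenp by 2.70 and 3.11. The interaction, which tests whether the effect of the compound differs between the states, was not called for these 4 (adjusted p = 0.63 to 0.96). The other two had smaller values after stimulation. The log2 fold change of Dlgap5 was 2.63 at rest and 0.74 in stimulated cells, the latter not called (adjusted p = 0.081; interaction adjusted p = 0.013), and that of Bub1b was 3.10 and 1.36, where the interaction missed the threshold (adjusted p = 0.058). Il7r (2.08 and 2.36) and Cdipt (-2.04 and -1.90) also moved alike in both states (interaction adjusted p = 0.56 and 0.79). A p that misses the threshold does not show that effects were equal, and the SE of these interaction terms was 0.23 to 0.56 on the log2 scale.

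**Figure D5:**
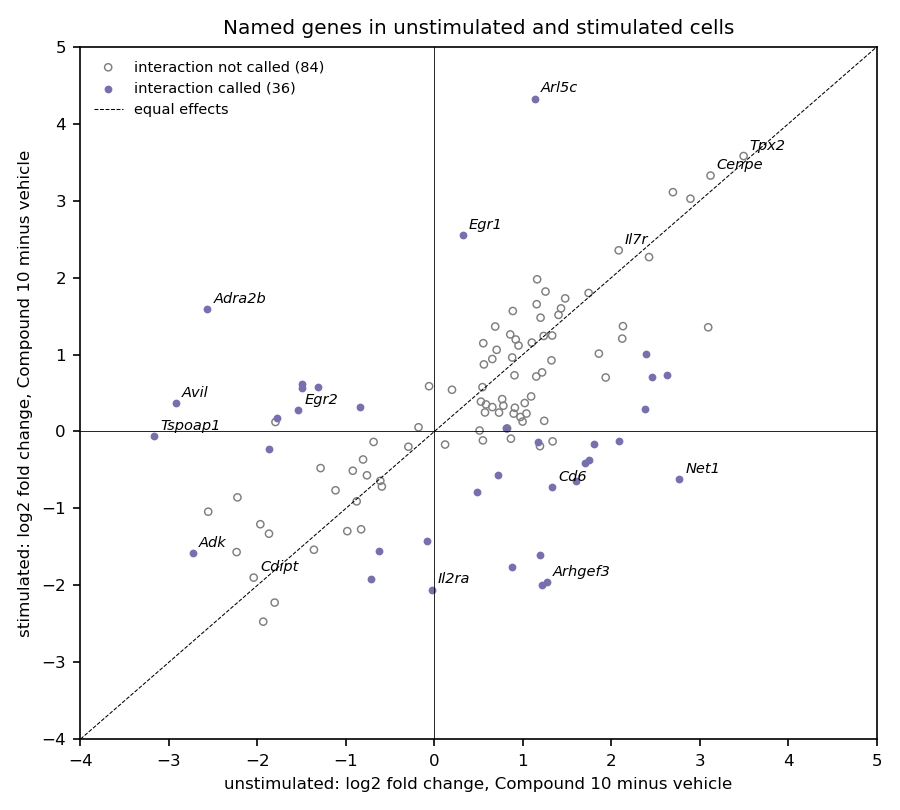
Log2 fold change of Compound 10 over vehicle in unstimulated (x axis) and stimulated cells (y axis) for 120 named genes, leaving out Il2, Il3, Csf2 and Ifng, which had at most 11 counts over the 5 unstimulated libraries. Filled points are the 36 genes with a called interaction and the dashed line marks equal effects; Tpx2 and Cenpe lie close to it, Tspoap1 lies near 0 on the y axis (-0.06), and Net1 lies below 0 there (-0.62).

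For other genes the effect of the compound differed between the states. The interaction was called for 956 genes (6.63% of those tested) and for 248 of the 1215 (20.4%), 180 of which had a stimulated effect of the opposite sign. Having been called at rest, these genes were chosen in part by the same values that enter the interaction, so nothing is read from that share. Net1 was 6.81-fold higher with Compound 10 at rest and fell by 0.62 in stimulated cells on the log2 scale (adjusted p = 0.011; interaction -3.39, adjusted p = 4.8e-05). Tspoap1 moved by -3.17 and -0.06 (interaction 3.11, adjusted p = 0.00088). Cd6 rose at rest and fell in stimulated cells (1.33 and -0.72, interaction adjusted p = 0.00066).

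The smallest interaction p-values among genes called at rest included genes with opposite effects in both states. Arhgef3, a RhoA exchange factor, moved by 1.27 and -1.96, Gfod1 by 1.22 and -1.999, and the adhesion gene Epcam by 1.20 and -1.61. Adra2b, the alpha-2B adrenergic receptor, moved by -2.57 and 1.59. Arl5c, a small GTPase of the ARF family, rose by 1.14 at rest, from 22.4, 20.4 and 27.4 CPM to 51.2 and 51.7 CPM, and by 4.33 in stimulated cells. Interaction counts varied with single libraries. They were 191 and 282 without stimulated vehicle library 1 or 2, 423 without unstimulated Compound 10 library 2 and 532 without unstimulated vehicle library 2. They were 520 and 579 without stimulated Compound 10 library 1 or 2.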

How the data were processed

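RNA was measured in 10 libraries of sorted naive CD4 T cells, of which the 5 unstimulated ones form this comparison. The estimated counts and TPM per transcript were made by the authors with kallisto after cutadapt trimming on mouse build mm10, per the submitters' processing notes and the file headers, with versions not given in the sources used here. Transcripts were matched to GENCODE M21 genes by identifier without version (108214 of 109617), gene sums of the estimated counts were rounded, and TPM served only for levels of marker genes. The kit does not mark the strand, so sense and antisense reads of overlapping genes are mixed. Counts of all 10 libraries entered 1 edgeR 4.0.16 fit (R 4.3.3, limma 3.58.1) with 1 coefficient per group, TMM factors and filterByExpr, which left 6 residual degrees of freedom. Contrasts were tested by the quasi-likelihood F test with Benjamini-Hochberg adjustment, and SEs were derived from each estimate with its F statistic. DESeq2 1.42.0 was an alternative. The members, lists and alternatives were chosen with earlier results of these data known. Named genes were the 12 largest rises and falls past adjusted p 0.05 with a mean of at least 8 CPM and no overlap, excluding unnamed models, ribosomal, mitochondrial and receptor segment genes, plus the panel, up to 4 called members per list and up to 5 interaction genes per sign. Of the largest rises, 1 is not reported here. Other list members named were chosen after their values were seen. Marker sums were compared by exact permutation of libraries.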

Additional observations from a re-analysis of the deposited data

Results flagged for a closer look

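The effect of Compound 10 differed between unstimulated and stimulated cells, by the interaction term of the edgeR quasi-likelihood fit with Benjamini-Hochberg adjustment, for 36 of the named genes. The named genes were chosen in part by this interaction and by their values at rest, so the number 36 is no result, and over all tested genes 6.63% were called. Each value is the log2 effect in stimulated cells minus that in unstimulated cells. Of genes that rose at rest, the difference was -3.39 for Net1, -3.23 for Arhgef3, -3.22 for Gfod1, -2.80 for Epcam and -2.64 for Tnfrsf9. The ligand genes Tnfsf8 and Tnfsf11 stood at -2.25 and -2.20. Genes near the T cell receptor stood at -2.12 (Lcp2), -2.11 (Malt1), -2.05 (Cd6) and -1.96 (Cd5). Mgat1 was at -2.10, Dlgap5 at -1.89, Jmjd1c at -1.75 and C9orf72 at -1.39. Smaller differences were -1.31 for Dusp5, -1.29 for Tiparp, -1.27 for Gnl3 and -0.76 for Flcn. Arl5c rose more in stimulated cells, by 3.19.

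Of genes that fell at rest, the difference was 4.15 for Adra2b, 3.29 for Avil, 3.11 for Tspoap1, 2.11 for Fbxl18 and 2.07 for Tyw1. Nek1 was at 1.95, Cxcl10 at 1.89, Egr2 at 1.81, Tpgs1 at 1.64, Rpa1 at 1.16 and Adk at 1.15. The nucleolar gene Rrs1 and Hnrnpa2b1 fell further in stimulated cells, by -1.20 and -0.94. Not called at rest were Egr1 (2.24), Il2ra (-2.03) and Nfatc1 (-1.34).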

How the results depend on the processing

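Of 2815 values of named genes at rest recomputed under other settings, 2386 kept their direction and side of the threshold, 393 lost the call, 19 gained it and 17 changed sign. At rest 1888 genes were called by DESeq2's Wald test, 2403 with the index set as a block, 122 with the resting libraries alone, 3526 with those libraries and the index set block (1 residual degree of freedom) and 598 without the 2 deepest libraries, against 1215. The last 2 alternatives and the cell cycle homology element were chosen after seeing the data. Leaving out 1 library gave 325 to 1335 calls at rest and 191 to 1332 for the interaction, against 956. The interaction was called for 1671 genes by DESeq2, 1448 with no filter on low counts and 2167 with the index set as a block. Its split of 368 higher and 588 lower turned to 527 and 314 with library totals as the only scaling and to 494 and 476 with upper-quartile factors. The replicate block, by the numbers in the labels, gave 1631 genes at rest, 1504 for the interaction and 1259 with the resting libraries alone. Deviations of same-numbered resting libraries correlated at 0.65 and -0.50. With 2 Compound 10 libraries the deviation of one mirrors that of the other. These correlations therefore cannot decide whether same-numbered libraries were paired. The cause of these changes was not tested.

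The sign changes were all in panel genes that were not called at rest. Over the fits that left out 1 library, log2 fold changes ran from -0.29 to 0.24 for Il2ra, -0.41 to 0.18 for Nfatc1, -0.099 to 0.014 for Cd69, -0.93 to 0.22 for Il2, -3.25 to 1.08 for Ifng and -0.058 to 0.42 for Fos. Il2ra moved to 0.010 with upper-quartile factors, 0.054 with the resting libraries and the index set block and 0.11 without the 2 deepest libraries. Nfatc1 moved to 0.00087 with the resting libraries and the index set block and 0.060 without the 2 deepest. Cd69 moved to 0.019 with that block. Ifng moved to -3.19 without the 2 deepest libraries and had 0 counts in the remaining treated library. With only the 250 bases before the start, the cell cycle homology element occurred in 15.4% of the mitotic genes that rose. Low counts limit Il2, Il3, Csf2 and Ifng at rest.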
